A study of Mus musculus with 4 samples.

Results

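The genes described here encode enzymes and membrane proteins of the lysosome, measured in mouse small intestine. There are 45 of them: 13 proteases, 11 glycosidases, 5 sulfatases, 8 lipid hydrolases and helper proteins, 7 membrane proteins and the transcription factor Tfeb. They were taken by name, and each is represented by a probe set that the platform annotation assigns to that gene alone, the one with the highest mean where a gene has more. All 45 had such a probe set, among 19938 genes that did, and all 45 were among the 13956 genes that passed the filter on low values. RNA of the small intestine of C57BL/6 mice was hybridised to 4 single-colour Affymetrix arrays. The groups compared were mice that carry a CFLARs transgene (CFLARs Tg), on the arrays titled XCFX and XCFY, and wild-type mice without it, on the arrays titled XX and XY. CFLARs is the short form of cFLIP, a regulator of caspase-8. The promoter of the transgene, the age of the mice, the stretch of intestine and the number of animals behind an array are not stated in those sources that were used, and the series title speaks of preterm mice with ileitis.

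Lysosomes are acidic organelles in which proteins, glycans and lipids that reach them from outside the cell or by autophagy are broken down. Their soluble hydrolases are made in the endoplasmic reticulum, tagged with mannose 6-phosphate and delivered by sorting receptors. TFEB and its relatives are transcription factors that bind a short element, the CLEAR element, near the start of many lysosomal genes. In newborn rodents the enterocytes of the distal small intestine take up milk proteins whole and digest them in large lysosomal vacuoles, and the channels Mcoln1 and Mcoln3 are known from such vacuoles.

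The deposited values are log2 expression values. On all 4 arrays the members read between 8.20 and 13.52, above the scale of 5.13 to 6.78 set by Y-linked genes on the XX-type arrays and by Xist on the XY-type arrays. The small intestine was present by its markers: the 12 epithelial marker genes, among them Cdx2, Vil1 and Epcam, averaged 12.61 and 12.43 on the CFLARs Tg arrays and 12.55 and 12.56 on the wild-type arrays. Nothing says that the 2 arrays of a group are separate litters or cultures, so each p-value reflects only how far these arrays spread, which may be technical. The CFLARs Tg arrays lay further apart than the wild-type arrays in these genes: the median distance over the 45 members was 0.32 between the CFLARs Tg arrays and 0.04 between the wild-type arrays, against 0.11 and 0.05 over all fitted genes.

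Most lysosomal genes were lower in CFLARs Tg intestine. Of the 45 members, 13 fell and 0 rose (limma, Benjamini-Hochberg adjusted p under 0.05 over all fitted genes), so that 28.9% fell, against 10.9% of all fitted genes that fell and 8.44% that rose. The 13 were Ctso, Mcoln1, Tfeb, Neu1, Man2b1, Gaa, Arsa, Smpd1, Ctsf, Acp2, Arsb, Lamp1 and Idua, with adjusted p from 0.0197 to 0.0473. An unadjusted limma p under 0.05 was found for 30 of 45 members, and for 5457 of all 13956 fitted genes. The difference was below 0 in 40 of 45 members (88.9%), against 52.4% of all fitted genes, and both CFLARs Tg arrays lay below both wild-type arrays in 35 members (77.8%), against 37.6% of all fitted genes. The median difference over the members was -0.32 on the log2 scale, and that over all fitted genes was -0.01. The changes were small: the members that fell did so by 0.32 to 0.88 on the log2 scale, that is by 1.25-fold to 1.84-fold. In a bulk sample, fewer cells of a type and less RNA per cell cannot be told apart.

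The 13 calls were not kept with either wild-type array left out, and nor were most calls over all fitted genes. Without a wild-type array the spread comes from the CFLARs Tg arrays alone. With the XX array (wild-type replicate 1) left out, 0 members passed (limma), the 13 had adjusted p from 0.192 to 0.335 and the median over all members was -0.28. With the XY array (wild-type replicate 2) left out, 0 passed, the 13 had adjusted p from 0.150 to 0.242 and the median was -0.32. With the title type, XX or XY, as a block, 22 members fell (48.9%) and 1 rose, against 12.2% of all fitted genes that fell in that fit. Tested against a minimum difference of 0.5 on the log2 scale 0 members passed, against 63 of all 13956 fitted genes (limma's treat). Without the XCFX array the median over all members was -0.45, and without the XCFY array it was -0.28.

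**Figure D1:**
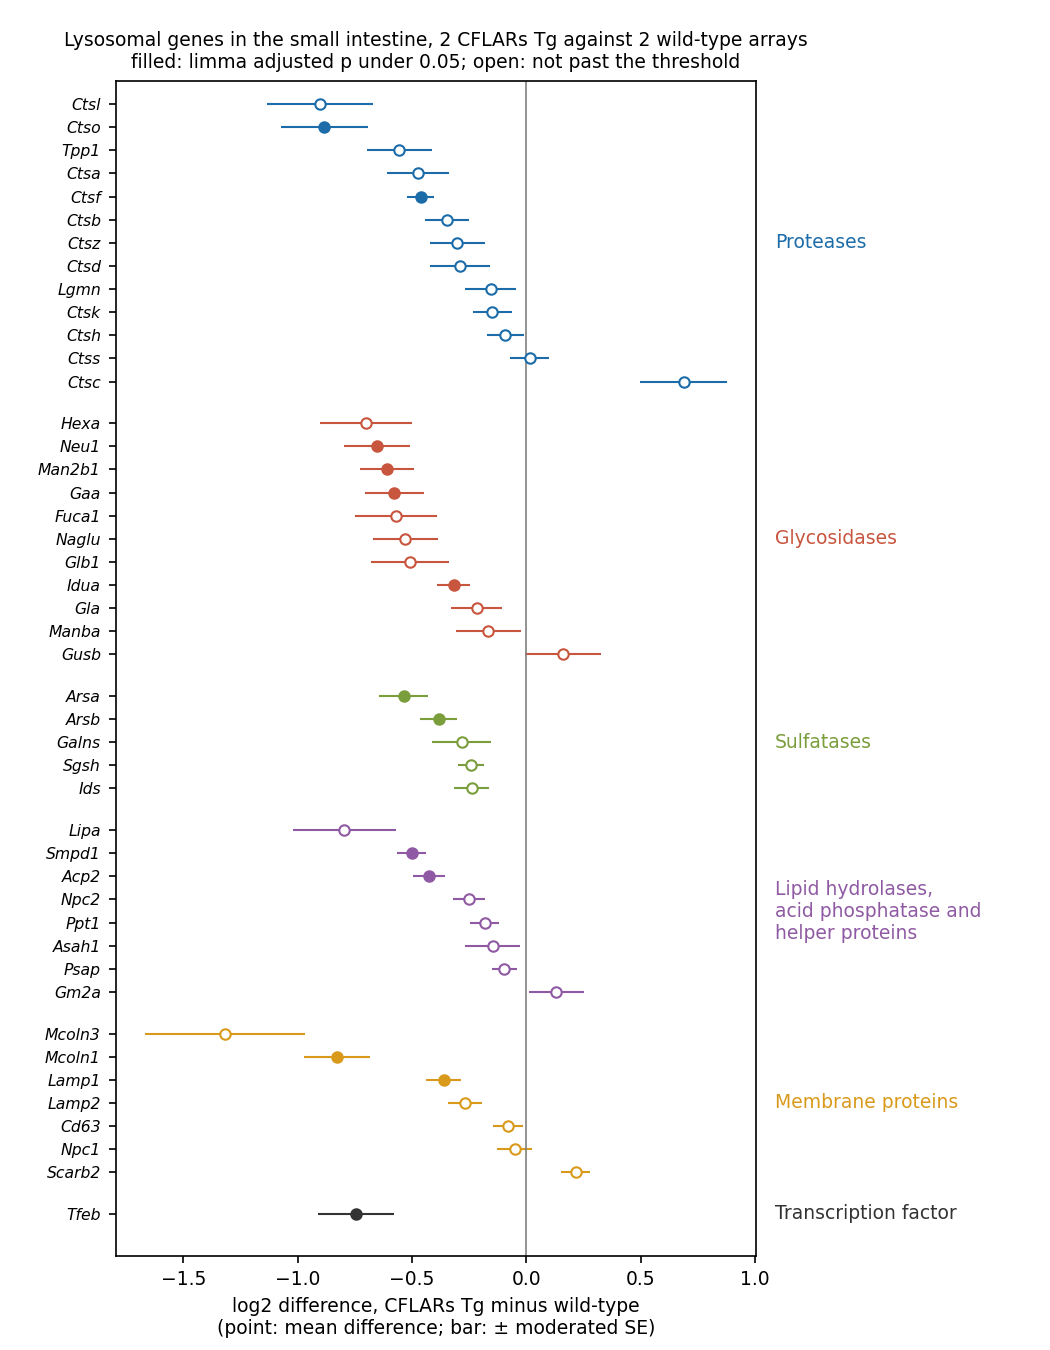
Log2 difference of each of the 45 lysosomal genes (x axis, CFLARs Tg minus wild-type, 2 arrays against 2), grouped by role; points are mean differences, bars ± the moderated standard error, filled points have a limma adjusted p under 0.05. In the plot, 40 of 45 points lie left of 0, and Ctsc lies farthest to the right at 0.69.

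Among the 13 proteases, 2 fell and 0 rose, against 10.9% of all fitted genes that fell and 8.44% that rose. The difference lay below 0 in 11 proteases, and the median difference was -0.30. Ctso, a cysteine cathepsin, read 10.33 and 9.78 on the CFLARs Tg arrays and 10.95 and 10.92 on the wild-type arrays. It fell by 0.88 (SE 0.19, n = 2 arrays each, limma adjusted p = 0.0415), a 1.84-fold difference. Ctsf, another cysteine cathepsin, read 8.28 and 8.20 in CFLARs Tg and 8.71 and 8.70 in wild-type and fell by 0.46 (SE 0.06, limma adjusted p = 0.0199). For both genes the groups did not overlap, and in Ctsf the CFLARs Tg arrays were close together, whereas in Ctso the XCFY array was the lower by far.

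Ctsl, the endopeptidase cathepsin L, had the largest difference of the proteases but did not pass. It read 12.36 and 11.69 in CFLARs Tg and 12.84 and 13.01 in wild-type, and differed by -0.90 (SE 0.23, limma adjusted p = 0.0592). Its XCFX and XCFY arrays were 0.67 apart. Tpp1, a tripeptidyl peptidase, differed by -0.56 (limma adjusted p = 0.0585), and Ctsa, the carboxypeptidase that holds Neu1 and Glb1 in one complex, by -0.47 (limma adjusted p = 0.0715). These 3 genes passed with the title type as a block (adjusted p = 0.033, 0.024 and 0.036). Cathepsin B (Ctsb, a cysteine protease) differed by -0.35, the carboxypeptidase gene Ctsz by -0.30 and the aspartic protease gene Ctsd by -0.29, and none of these 3 passed in either fit. Legumain (Lgmn), Ctsk and the aminopeptidase Ctsh had differences of -0.16, -0.15 and -0.09 with SE of 0.11, 0.08 and 0.08.

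Ctsc and Ctss were the proteases whose difference did not lie below 0. Ctsc, the dipeptidyl peptidase that activates the granule serine proteases of neutrophils and cytotoxic lymphocytes, read 11.35 and 11.90 in CFLARs Tg and 10.94 and 10.93 in wild-type. Both CFLARs Tg arrays were the higher ones, by 0.69 on average (SE 0.19, limma adjusted p = 0.0671, or 0.0298 with the title type as a block). Ctss, which trims the invariant chain in antigen-presenting cells, read 10.87 and 10.73 in CFLARs Tg and 10.71 and 10.86 in wild-type. Its groups overlapped and their means were 0.01 apart (SE 0.09). The fitted neutrophil markers moved in the same direction as Ctsc: of 8, 7 rose (87.5%, against 8.44% of all fitted genes) and 0 fell. Their mean log2 value was 8.59 and 9.68 on the CFLARs Tg arrays and 7.21 and 7.32 on the wild-type arrays. The share of 87.5% depends on the filter. S100a8, S100a9, Ly6g, Cxcr2, Csf3r and Il1r2 had wild-type means of 6.71 to 7.30, under the limit of 7.48. They passed it only through the CFLARs Tg arrays. Elane, Camp and Mpo, left out by it, averaged 7.40, 7.28 and 7.43 in CFLARs Tg and 7.33, 7.30 and 7.14 in wild-type. Mmp8 and Retnlg, also left out, averaged 8.15 and 8.23 in CFLARs Tg and 6.02 and 6.20 in wild-type. S100a9 rose by 2.71 and Il1r2 by 2.15. S100a8 was at least 5.91-fold and the chemokine receptor gene Cxcr2 at least 5.04-fold higher in CFLARs Tg, since for each 1 of the 2 wild-type readings lay within the background scale and was set to its upper end (limma adjusted p = 0.0464 for S100a8 and 0.0286 for Cxcr2). S100a8 missed the threshold without a filter on low values (limma adjusted p = 0.0516). Of the 13 neutrophil markers with a probe set, S100a8, Cxcr2, Mmp8 and Retnlg had readings within the background scale, on wild-type arrays. The part of neutrophils in the value of Ctsc was not tested.

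Of the 11 glycosidases, 4 fell and 0 rose, against 10.9% of all fitted genes that fell. The difference lay below 0 in 10 of them, and the median difference was -0.53. Neu1, the sialidase, read 11.70 and 11.30 in CFLARs Tg and 12.18 and 12.12 in wild-type and fell by 0.65 (SE 0.14, limma adjusted p = 0.044). Man2b1, the lysosomal alpha-mannosidase, read 11.54 and 11.21 in CFLARs Tg against 12.00 and 11.97 in wild-type and fell by 0.61 (SE 0.12, limma adjusted p = 0.0353). Both genes were below the wild-type arrays on each CFLARs Tg array, with the XCFY array the lower one.

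Gaa, the acid alpha-glucosidase that degrades glycogen, read 11.05 and 10.70 in CFLARs Tg and 11.48 and 11.42 in wild-type and fell by 0.58 (SE 0.13, limma adjusted p = 0.0457). Idua, which removes iduronic acid from dermatan and heparan sulfate, read 8.98 and 8.90 in CFLARs Tg and 9.32 and 9.20 in wild-type and fell by 0.32 (SE 0.07, limma adjusted p = 0.0473). Both calls were near the threshold. Without a filter, after quantile normalization and after median centring the adjusted p was 0.0519, 0.0511 and 0.0507 for Gaa and 0.0569, 0.0508 and 0.0516 for Idua.

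Of the glycosidases that did not pass, 4 differed by more than 0.5. Hexa, the alpha subunit of beta-hexosaminidase, read 12.34 and 11.75 in CFLARs Tg and 12.75 and 12.74 in wild-type, with a difference of -0.70 (SE 0.20, limma adjusted p = 0.0726). The alpha-fucosidase Fuca1 differed by -0.57, the heparan sulfate glucosaminidase Naglu by -0.53 and the beta-galactosidase Glb1 by -0.51 (limma adjusted p = 0.0897, 0.0639 and 0.1). In these genes no CFLARs Tg array reached a wild-type array, and all 4 passed with the title type as a block (adjusted p from 0.0183 for Naglu to 0.0498 for Glb1). Gla, the alpha-galactosidase encoded on the X chromosome, differed by -0.22 (SE 0.11) and the beta-mannosidase Manba by -0.17 (SE 0.14), and the groups of Manba overlapped. Gusb, the beta-glucuronidase, read 11.81 and 11.33 in CFLARs Tg and 11.42 and 11.39 in wild-type, so only its XCFX array was high, and its difference was 0.16 (SE 0.17).

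All 5 sulfatase genes lay lower on both CFLARs Tg arrays than on both wild-type arrays, as did 37.6% of all fitted genes. Of the 5, 2 fell, against 10.9% of all fitted genes. Arsa, which acts on sulfatide, read 9.56 and 9.33 in CFLARs Tg and 10.07 and 9.90 in wild-type and fell by 0.54 (SE 0.11, limma adjusted p = 0.0367). Arsb, which acts on dermatan and chondroitin sulfate, read 9.92 and 10.09 in CFLARs Tg and 10.35 and 10.43 in wild-type and fell by 0.38 (SE 0.08, limma adjusted p = 0.0401). Arsb was the single member measured by more than 1 probe set, and its second probe set differed by -0.24. Galns, the heparan sulfamidase Sgsh and the iduronate sulfatase Ids differed by -0.28, -0.24 and -0.24 (limma adjusted p = 0.181, 0.0517 and 0.0863). Sgsh passed when the lowest 50% of genes were left out (adjusted p = 0.0479).

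Of the 8 lipid hydrolases and helper proteins, among which the acid phosphatase Acp2 is counted, 2 fell and 0 rose, against 10.9% of all fitted genes that fell. The difference lay below 0 in 7 of the 8, and the median difference was -0.22. Smpd1, the acid sphingomyelinase, read 10.29 and 10.21 in CFLARs Tg and 10.78 and 10.72 in wild-type and fell by 0.50 (SE 0.06, limma adjusted p = 0.0197, the lowest among the members). Acp2 read 10.55 and 10.50 in CFLARs Tg and 11.01 and 10.89 in wild-type and fell by 0.43 (SE 0.07, limma adjusted p = 0.0269). In both genes the arrays of one genotype lay close together and the genotypes did not overlap. Lipa, the acid lipase that frees cholesterol and fatty acids from lipoprotein lipids, read 11.61 and 10.94 in CFLARs Tg and 12.06 and 12.08 in wild-type. Its difference of -0.80 (SE 0.22, limma adjusted p = 0.0706, or 0.0295 with the title type as a block) came with CFLARs Tg arrays that were 0.67 apart.

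The other genes of this class, hydrolases and helper proteins, showed smaller differences. The cholesterol-binding protein gene Npc2 differed by -0.25 (limma adjusted p = 0.0712), the palmitoyl thioesterase gene Ppt1 by -0.18 (0.109) and the acid ceramidase gene Asah1 by -0.15 (0.419). Psap, the precursor of the saposins that present sphingolipids to their hydrolases, read 12.76 and 12.76 in CFLARs Tg and 12.85 and 12.86 in wild-type, a difference of -0.10 with an SE of 0.05 (limma adjusted p = 0.256). Gm2a, the activator protein that lifts a ganglioside out of the membrane for beta-hexosaminidase, read 10.80 and 11.13 in CFLARs Tg and 10.85 and 10.81 in wild-type, so that the groups overlapped (difference 0.13, SE 0.12).

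Of the 7 membrane proteins, 2 fell and 0 rose, against 10.9% of all fitted genes that fell. The difference lay below 0 in 6 of the 7, and the median difference was -0.27. The calcium channel gene Mcoln1 read 11.71 and 11.30 in CFLARs Tg and 12.33 and 12.34 in wild-type and fell by 0.83 (SE 0.14, limma adjusted p = 0.0293), a 1.78-fold difference. Its relative Mcoln3 read 11.53 and 10.47 in CFLARs Tg and 12.35 and 12.29 in wild-type. This was the largest difference of the 45 genes, -1.32 or 2.49-fold, but the CFLARs Tg arrays were 1.05 apart and the gene did not pass (SE 0.35, limma adjusted p = 0.063, or 0.0204 with the title type as a block). Without CFLARs Tg replicate 1 (the XCFX array) its difference was -1.85, and without replicate 2 (the XCFY array) -0.79.

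Lamp1, one of a pair of major glycoproteins that coat the lysosomal membrane, read 12.66 and 12.50 in CFLARs Tg and 12.94 and 12.94 in wild-type and fell by 0.36 (SE 0.08, limma adjusted p = 0.0407, or 0.0535 after quantile normalization). Lamp2, the other one, differed by -0.27 (SE 0.07, limma adjusted p = 0.0678). The tetraspanin gene Cd63 and the cholesterol exporter gene Npc1 had differences of -0.08 (SE 0.07) and -0.05 (SE 0.08). Scarb2, the receptor that carries beta-glucocerebrosidase to the lysosome, read 10.47 and 10.56 in CFLARs Tg and 10.27 and 10.33 in wild-type. With Ctsc it was 1 of 2 members whose CFLARs Tg arrays both lay above both wild-type arrays, at a difference of 0.22 (SE 0.06, limma adjusted p = 0.0801).

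**Figure D2:**
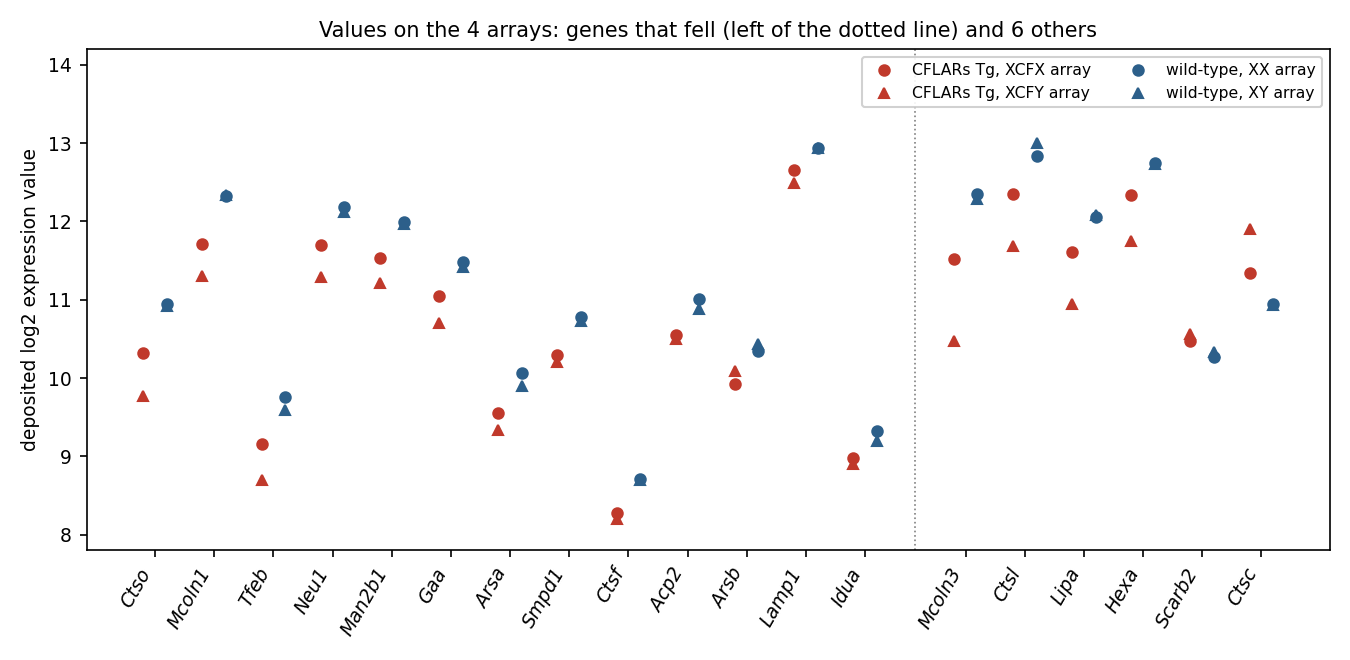
Deposited log2 value (y axis) on each of the 4 arrays for the 13 genes that fell (left of the dotted line) and 6 others chosen after their values were seen (right); red, CFLARs Tg; blue, wild-type; circles, XCFX and XX arrays; triangles, XCFY and XY arrays. The blue points of a gene lie close together, and the red points spread most in Mcoln3, at 11.53 and 10.47.

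Tfeb read 9.15 and 8.70 on the CFLARs Tg arrays and 9.75 and 9.60 on the wild-type arrays. It fell by 0.75 (SE 0.17, limma adjusted p = 0.0447), a 1.68-fold difference. Promoter windows of RefSeq (mouse build GRCm38.p6), which run from 250 bases before to 50 bases after a gene's start, were found for 40 of the 45 members and were searched on both strands for the letters GTCACGTG, TCACGTGA and CACGTG. The first 2 are parts of the CLEAR element and both hold the third, so their matches overlap. GTCACGTG was in the windows of 10 of 40 members (25%) and of 2.55% of 27025 genes. TCACGTGA was in 4 members (10%) and 1.12% of genes, and CACGTG in 13 members (32.5%) and 8.09% of genes. All 10 members with GTCACGTG lay below 0, from -0.83 to -0.16, as did 40 of all 45 members. The median difference was -0.42 over these 10 and -0.35 over the 30 members without GTCACGTG, and 3 of the 10 and 10 of the 30 fell. For CACGTG the medians were -0.47 with it and -0.30 without, and 5 of 13 and 8 of 27 members fell. For TCACGTGA they were -0.38 and -0.37, and 1 of 4 and 12 of 36 fell. A match describes letters in a window and shows no binding. The element is known from lysosomal genes, so its share among the members does not depend on these arrays and says nothing about them.

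The stretches around these matches are printed for the 3 members that fell and hold GTCACGTG, Mcoln1, Lamp1 and Arsa, and for Ctsa, Glb1 and Naglu, which passed with the title type as a block. They show the letters around each match and that Mcoln1 has a pair of matches. The distances to the start are given below. All are upstream of the start, 5′ to 3′ on the gene's strand, with GTCACGTG, its reverse complement or TCACGTGA in capitals. They lie at chr8:3500430-3500497 (plus strand, Mcoln1), chr8:13159117-13159156 (plus strand, Lamp1), chr15:89477425-89477458 (minus strand, Arsa), chr2:164833743-164833772 (plus strand, Ctsa), chr9:114401012-114401051 (plus strand, Glb1) and chr11:101070003-101070042 (plus strand, Naglu).
Mcoln1: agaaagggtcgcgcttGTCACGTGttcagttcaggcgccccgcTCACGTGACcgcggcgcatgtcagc
Lamp1: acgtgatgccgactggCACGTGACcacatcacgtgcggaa
Arsa: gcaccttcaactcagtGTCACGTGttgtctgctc
Ctsa: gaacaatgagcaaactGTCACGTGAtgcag
Glb1: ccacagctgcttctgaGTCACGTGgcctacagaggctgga
Naglu: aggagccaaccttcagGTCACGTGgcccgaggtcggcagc

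The match closest to the start was that of Ctsa, whose last base lies 6 bases before it, followed by Arsa at 11 and Lamp1 at 21 bases. In Mcoln1 the nearer match ends 38 bases before the start, in Glb1 the match ends 43 and in Naglu 68 bases before it.

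The differences were set out for the XY-type and the XX-type arrays apart, without a test, because each pair has 1 array of each genotype. The median over the members was -0.44 for XCFY minus XY and -0.28 for XCFX minus XX, against -0.01 and -0.02 over all fitted genes. The size of the difference was larger in the XY-type pair for 34 of 45 members (75.6%), against 60.8% of all fitted genes. Of the 45 members, 37 were lower in both pairs, 2 higher in both, and 6 had opposite signs, of which 0 had differences beyond 0.2 in both pairs. Of all 13956 fitted genes, 5734 were lower and 4991 higher in both pairs. Mcoln3 differed by -1.82 in the XY-type and -0.82 in the XX-type pair, Ctsl by -1.32 and -0.48, and Lipa by -1.14 and -0.46, in the same order. Of the 5 sulfatase genes, Galns and Arsa differed more in the XY-type pair, Galns by -0.45 and -0.11 and Arsa by -0.56 and -0.51, in that order. Arsb, Ids and Sgsh differed more in the XX-type pair, Arsb by -0.34 in the XY-type and -0.43 in the XX-type pair.

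**Figure D3:**
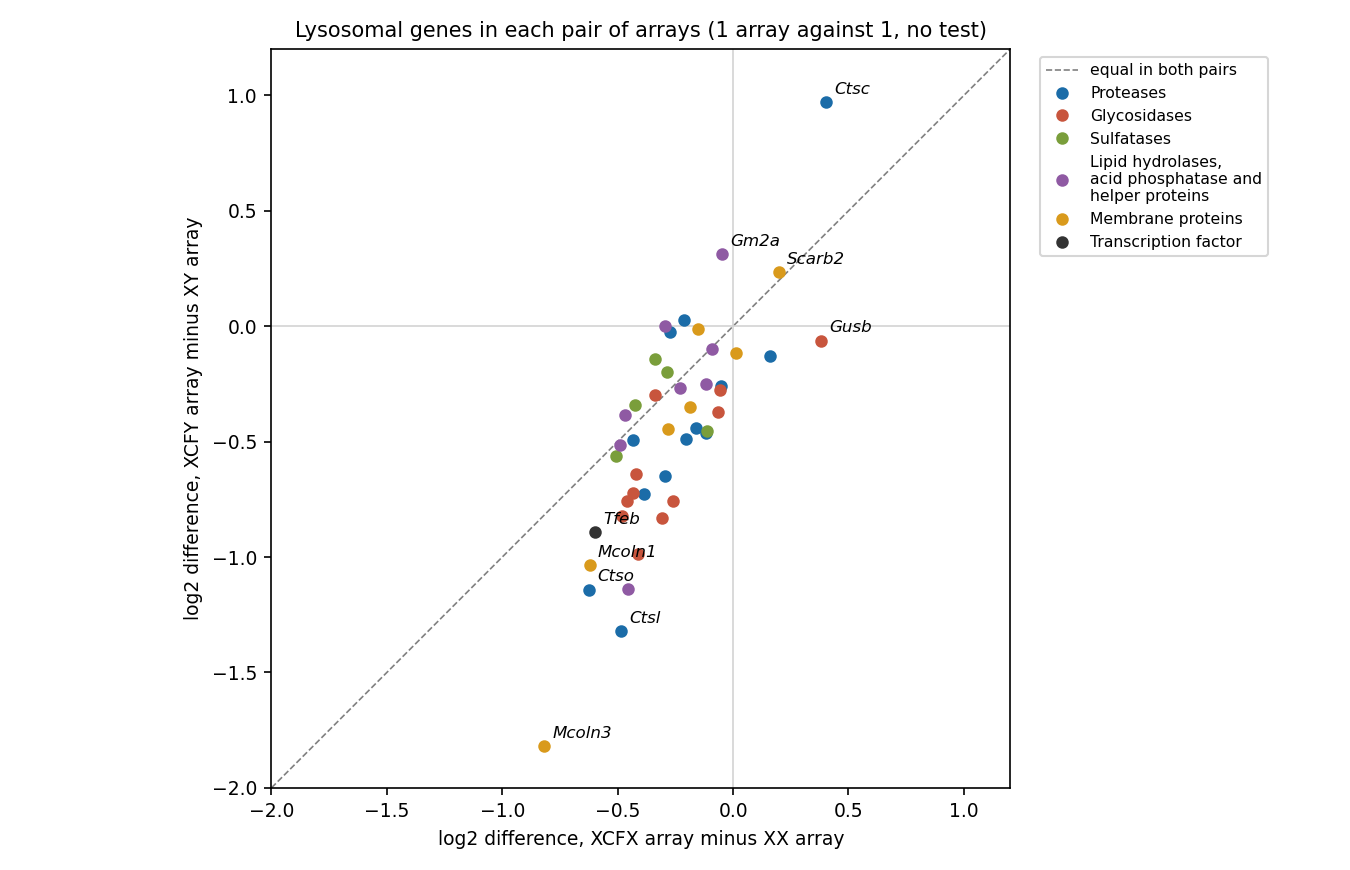
Log2 difference of each lysosomal gene in the XY-type pair (y axis, XCFY array minus XY array) against the XX-type pair (x axis, XCFX array minus XX array), coloured by role; the dashed line marks equal differences. Of 45 points, 37 lie in the lower left quadrant, and Mcoln3 is the lowest at -1.82 and -0.82.

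Other genes of the lysosome, not among the 45, were taken from 2 further lists. Of 22 fitted enzyme and cofactor genes, 8 fell (36.4%, against 10.9% of all fitted genes) and 0 rose, with a median of -0.46. Arsg, a sulfatase gene, read 8.13 and 7.85 in CFLARs Tg and 9.27 and 9.21 in wild-type and fell by 1.25 (SE 0.11, limma adjusted p = 0.0151). The sialic acid esterase gene Siae fell by 1.16, Cln3 by 0.67 and Galc, which degrades galactosylceramide, by 0.58. Of 29 fitted membrane and transport genes, 9 fell (31%) and 1 rose (3.45%, against 8.44% of all fitted genes), with a median of -0.30. The cystine exporter gene Ctns fell by 0.79, Tmem9 by 0.93 and the amino acid transporter gene Slc36a1 by 0.65. The call of Slc36a1 was near the threshold (limma adjusted p = 0.0499). It was missed without a filter (0.0561), after quantile normalization (0.0533), after median centring (0.0548) and with the median of a gene's probe sets (0.0503). Tmem9 missed the threshold without a filter and after quantile normalization (limma adjusted p = 0.0519 and 0.0512). Slc15a3, a peptide and histidine transporter of immune cell endolysosomes, read 8.83 and 9.16 in CFLARs Tg and 8.01 and 7.93 in wild-type and rose by 1.02 (SE 0.12, limma adjusted p = 0.0194).

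Genes that acidify the lysosome or deliver its enzymes had medians nearer 0. Of 16 fitted subunits of the proton pump, 1 fell, Atp6v1e1 by 0.35 (limma adjusted p = 0.0486, and 0.0574 without a filter), 0 rose and the median was -0.11. Of 23 fitted genes of mannose 6-phosphate tagging and sorting, 3 fell and 0 rose, with a median of -0.12: the adaptor gene Gga2 fell by 0.91, Cln6, whose product helps enzymes leave the endoplasmic reticulum, by 0.71, and the mannose 6-phosphate receptor gene Igf2r by 0.34 (limma adjusted p = 0.0444, and 0.0531 without a filter). Atp6v1e1 also missed the threshold after quantile normalization and median centring (limma adjusted p = 0.0561 and 0.0553), and Igf2r after median centring (0.0504). The share of sorting genes that fell, 3 of 23, is near the 10.9% of all fitted genes, and that of the pump, 1 of 16, is below it.

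Among 21 fitted genes of the TFEB family and of nutrient sensing at the lysosome, 5 fell and 0 rose, with a median of -0.14. The share that fell was 23.8%, against 10.9% of all fitted genes. Ppargc1a, a transcriptional coactivator gene, read 9.28 and 9.07 in CFLARs Tg and 10.36 and 10.30 in wild-type and fell by 1.16 (SE 0.09, limma adjusted p = 0.0115). Rragd, a small GTPase gene that is itself a TFEB target, fell by 0.98, Flcn by 0.64 and Tsc1 by 0.30. The relatives of Tfeb had differences of 0.16 (Tfe3), -0.05 (Tfec) and -0.07 (Mitf), chosen after their values were seen, and did not pass. Of 27 fitted autophagy genes, 10 fell (37%, against 10.9% of all fitted genes) and 0 rose, with a median of -0.18. The receptor gene Calcoco1 fell by 0.68, Atg14 by 0.61, Atg13 by 0.52 and Atg12 by 0.44, and the last 3 act in the making of autophagosomes.

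Protease inhibitors were measured as well. Of 8 fitted genes in the list of cathepsin inhibitors, 4 rose (50%, against 8.44% of all fitted genes) and 0 fell, with a median of 0.29. Stfa2, a stefin that blocks cysteine cathepsins, read 8.26 and 9.97 in CFLARs Tg and 5.90 and 6.24 in wild-type and rose (limma adjusted p = 0.0332). Both wild-type readings lay within the background scale, so that Stfa2 was at least 5.04-fold higher, against the upper end of that scale. Stfa2, counted in the 50%, passed the filter on low values only through the CFLARs Tg arrays. Cst7 and Stfa3, left out by that filter, averaged 6.87 and 7.91 in CFLARs Tg and 6.68 and 6.29 in wild-type. Serpinb1a, Serpinb9 and Serpinb6b, which rose by 0.60, 0.53 and 0.41, belong to a family that mainly inhibits serine proteases. The cysteine protease inhibitor genes Cst3, Cstb and Cst6 are named after their values were seen. Cst3 and Cstb had differences of 0.04 and 0.18 and did not pass. Cst6 read 9.60 and 8.66 in CFLARs Tg and 10.05 and 10.06 in wild-type, a difference of -0.92 (SE 0.31, limma adjusted p = 0.102), and fell with the title type as a block (limma adjusted p = 0.0409). Most fitted neutrophil markers rose on the same arrays, as given above with the limit set by the filter. The part of neutrophils in these values was not tested.

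**Figure D4:**
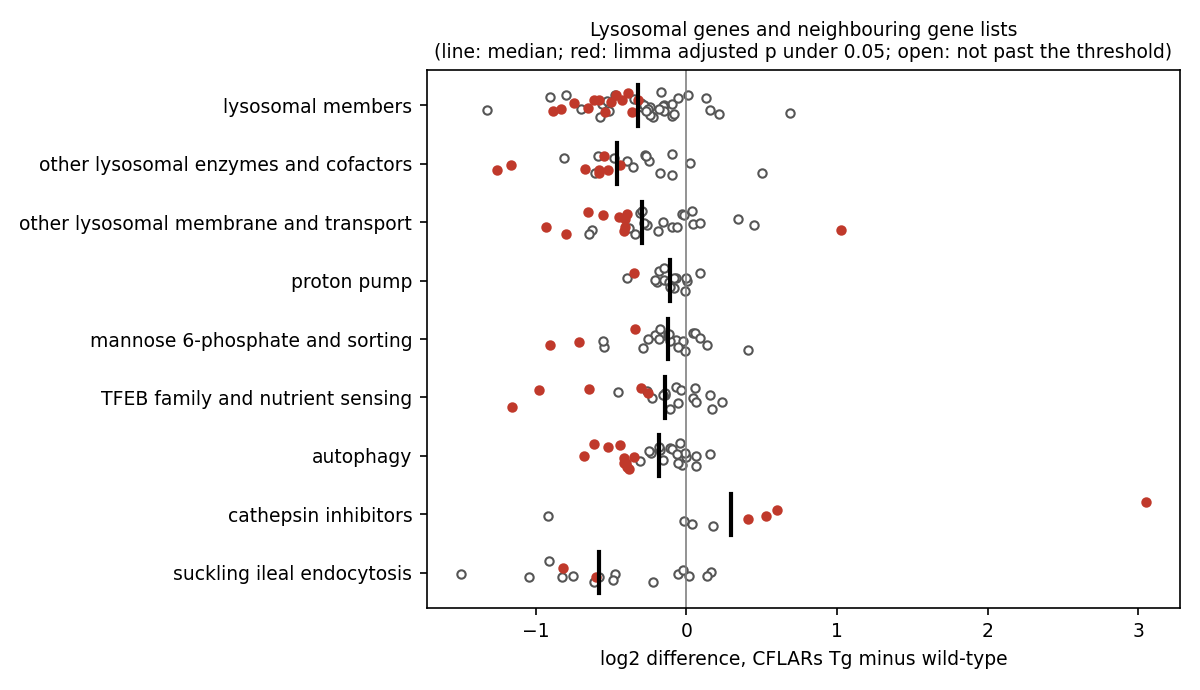
Log2 difference (x axis, CFLARs Tg minus wild-type) of the 45 lysosomal members and of 8 neighbouring gene lists (rows); each point is a fitted gene, black lines are medians, red points have a limma adjusted p under 0.05. The medians of the 2 lists of other lysosomal genes, -0.46 and -0.30, are drawn with that of the members, -0.32, and that of the proton pump is -0.11. The point of Stfa2 rests on wild-type readings at background.

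Of 17 fitted endocytic and other genes of suckling enterocytes, 2 fell (11.8%, near the 10.9% of all fitted genes), 0 rose and the median was -0.58. With the title type as a block 8 fell, against 12.2% of all fitted genes in that fit. Otc, of the urea cycle, fell by 0.82 and the endocytic adaptor gene Dab2 by 0.60 (for Dab2, which has 2 probe sets, their median differed by -0.33, limma adjusted p = 0.0566). The mean log2 value of the 17 genes was 11.22 and 10.71 on the CFLARs Tg arrays and 11.50 and 11.44 on the wild-type arrays, the XCFY array again being the lowest. Of the 12 small intestinal epithelial markers 0 fell and 2 rose, the keratin genes Krt18 by 0.64 and Krt8 by 0.33. Of all fitted genes 10.9% fell and 8.44% rose. The difference lay below 0 in 7 of 12 markers, against 52.4% of all fitted genes. Krt19 and Cdh1, named after their values were seen, differed by 0.50 and 0.16 (limma adjusted p = 0.0803 and 0.107). Their CFLARs Tg arrays both lay above both wild-type arrays, and Krt19 passed with the title type as a block (limma adjusted p = 0.0276). Genes of mature enterocytes, named after their values were seen, were among those below 0: the fatty acid-binding protein gene Fabp2 differed by -0.72 (limma adjusted p = 0.127), the alkaline phosphatase gene Alpi by -0.52 (0.0898, or 0.0354 with the title type as a block) and the apolipoprotein gene Apoa4 by -0.27 (0.12). Fabp2 read 13.33 and 12.52 in CFLARs Tg and 13.66 and 13.64 in wild-type, with the XCFY array the lowest, as in many lysosomal genes. The part of enterocyte number or maturity in the lysosomal values was not tested.

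Markers of other cells showed the following. Of 14 fitted monocyte and macrophage markers 0 rose and 1 fell, the phagocyte receptor gene Mertk by 0.84. Of all fitted genes 8.44% rose and 10.9% fell. The mean of the 14 was 9.55 and 9.999 on the CFLARs Tg arrays and 9.35 and 9.36 on the wild-type arrays. The other markers lay mostly the other way: 12 of 14 were above 0, 9 had both CFLARs Tg arrays above both wild-type arrays, and the median was 0.32. Of all 13956 fitted genes, 6650 were above 0 and 4470 had both CFLARs Tg arrays above both wild-type arrays. With the title type as a block 5 markers rose (limma adjusted p from 0.0191 to 0.0349), and 1411 of all 13956 fitted genes did. Named after their values were seen, Itgam, Cd14 and Lyz2 differed by 1.22, 1.11 and 0.99 (limma adjusted p = 0.0702, 0.0694 and 0.061) and were among these 5 markers. Cd14, with a wild-type mean of 7.32, passed the filter on low values only through the CFLARs Tg arrays. Cd163 was at or near the background scale on all arrays. The 12 stromal and endothelial markers averaged 11.53 and 11.69 in CFLARs Tg and 11.60 and 11.61 in wild-type, with 0 calls. The 6 fitted dendritic and B cell markers averaged 8.93 and 8.90 against 8.92 and 8.94 and the 2 fitted T cell markers 8.31 and 8.31 against 8.41 and 8.24, with CFLARs Tg first and 0 calls. Differences of 0.54 for Itgax and -0.37 for H2-Aa, 0.06 for Thy1 and -0.08 for Cd3e, and 0.21 for Lyve1 and 0.14 for Pdgfrb did not pass, and the markers Xcr1, Ms4a1 and Cd3d read within the background scale. Genes of liver and pancreas, as a sign of tissue carried over, averaged 9.62 and 8.03 in CFLARs Tg and 9.94 and 11.19 in wild-type over 6 fitted genes. Of these Ttr fell by 0.84, with wild-type readings of 12.35 and 12.33. Named after their values were seen, Alb, Ctrb1 and Ahsg differed by -3.21, -2.61 and -2.38 and did not pass (limma adjusted p = 0.205, 0.127 and 0.143). These 3 were highest on the XY array and lowest on the XCFY array, Alb at 12.72 and 6.57. The part of any of these cells in the lysosomal values was not tested.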

How the data were processed

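The authors deposited log2 expression values for 28856 probe sets on 4 arrays. Per the labels' protocols, biotinylated cRNA was made by the standard Affymetrix procedure, and how probes were summarised and normalized is not stated in the sources used. The array medians lay between 8.31 and 8.33, and 0 values were missing. The values were used as deposited. Gene symbols came from the platform annotation (21789 probe sets with 1 symbol, 1621 with several, 5446 with none or not listed), and the gene table of GRCm38.p6 held 21698 of the gene identifiers and changed 0 symbols. The 30% of genes with the lowest mean, under 7.48, were left out. CFLARs Tg was compared with wild-type by limma 3.58.1 in R 4.3.3 (lmFit, eBayes, no covariate, 2 residual and 2.64 prior degrees of freedom), with Benjamini-Hochberg adjustment over 13956 genes. The script was tested on simulated data. An exact permutation of 2 against 2 arrays cannot give a two-sided p under 0.333. All members could be named, and of each other list up to 4 genes past the threshold with the largest differences, or 2 where none passed. The members and lists were chosen with earlier results of these data known. The number of arrays limits the precision.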

Additional observations from a re-analysis of the deposited data

How the results depend on the processing

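The 13 falls and 0 rises among the 45 members were recomputed under 12 other settings. Without a filter, with the lowest 50% of genes left out, after quantile normalization, after median centring, with the median of a gene's probe sets and with limma-trend, between 10 and 13 members fell and 0 rose. With the title type as replicate block, which leaves 1 residual degree of freedom, 22 fell and 1 rose, the 13 among them. The block joins arrays of one title type; the labels give no replicate numbers. Against a minimum difference of 0.5, 0 fell. Leaving out 1 array in turn gave 0 to 33 falls and 0 to 3 rises: 33 and 27 falls without CFLARs Tg replicate 1 and 2, and 0 without either wild-type array. With 1 array of a genotype left, it was assumed to vary like the arrays of the other genotype. The median difference ran from -0.45 to -0.28 over these arrays left out. Differences that changed sign with an array left out ran from -0.0591 to 0.0888 for Ctss, -0.0796 to 0.40 for Gusb, -0.35 to 0.0189 for Manba, -0.31 to 0.0156 for Asah1, -0.029 to 0.29 for Gm2a, -0.13 to 0.0273 for Npc1 and -0.0478 to 0.17 for the T cell marker Thy1. Over all fitted genes the number of calls was 2695, against 3112 with the block, 63 with the minimum difference, 6559 and 4526 without CFLARs Tg replicate 1 and 2, and 42 and 40 without wild-type replicate 1 and 2. Of the 163 other fitted genes of the neighbouring lists, 38 fell and 5 rose, against 54 and 7 with the block, 88 and 12 without CFLARs Tg replicate 1, 68 and 7 without replicate 2, and 0 and 0 with the minimum difference or without either wild-type array; with the lowest 50% of genes left out 38 fell and 2 rose. The settings for single classes, neighbouring lists and their genes were added after seeing the data. The cause was not tested.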
